A study of Mus musculus with 11 samples.

Results

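Hepatocytes, the parenchymal cells of the liver, are not the cells these libraries were meant to hold, yet every library contained their transcripts. The genes described here are 43 transcripts chosen by symbol as typical of hepatocytes: 26 secreted plasma proteins, 8 periportal genes, 6 pericentral genes and 3 others. All 43 were found among the 56748 genes of the deposited count table, by Ensembl gene ID in GENCODE M21 (GRCm38), and 42 of them passed the filter on low counts. The serine dehydratase gene Sds did not, with 0 to 24 counts per library. Of the 30 members with enough counts to be judged, 26 rose and fell together from library to library, over about a 23-fold range, with overlapping genotypes. The other 4 of those 30 had a pattern of their own, and of these the urea cycle gene Ass1 was higher in the libraries labelled Atg5-deficient.

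The study profiled liver CD4 T cells by RNA-seq in mice given the hepatotoxin CCl4 for 5 weeks to produce fibrosis. One group carried ATG5TLymph-/-, a loss of the autophagy gene Atg5 that the name places in T lymphocytes (6 libraries), and the other is wildtype by its sample labels (5 libraries), which the series design specifies as ATG5fl/fl, a floxed Atg5 allele. The labels do not name the Cre driver, the age or the sex of the mice. They do not say whether a library is 1 mouse either, so p-values measure the spread between these samples. The series design names cell sorting, whereas the labels' extraction protocol starts from 5 µm sections of fixed, paraffin-embedded blocks, and the labels do not resolve the difference.

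Libraries held 30699408 to 47564440 counts, and 3 counts, the limit below which a gene was taken as not detectable, were 0.0631 to 0.0977 CPM (counts scaled to a library total of 1000000). Atg5, scaled as for the single genes below, had 19.1 ± 2.50 CPM (SD, n = 6) in libraries labelled Atg5-deficient. It had 16.9 ± 3.58 (n = 5) in wild-type ones, with overlapping ranges. A count over the whole gene does not isolate a deleted part, so it does not check the labels, and genotypes below are those of the labels. CD4 T cell markers (8 genes) summed to 2767 to 4139 CPM in every library, with Cd4 itself at 610 to 1016 CPM on the same scale. Markers of neutrophils summed to 0 to 0.603 CPM, and Retnlg was at 0 in all libraries. Summed markers ran from 4.10 to 6.55 CPM for CD8 T cells, 4.75 to 21.5 for B cells, 2.08 to 13.3 for erythroid cells and 1.54 to 5.49 for stellate cells. The CD8 T cell sum was nearly all Cd8b1 (140 to 258 counts per library), while Cd8a had 0 to 6 counts. Cholangiocyte markers summed to 3.59 to 11.4 CPM except in Atg5-deficient library 4, where they reached 102, nearly all of it Spp1 (3563 counts there and 2 to 94 elsewhere). In the other libraries Epcam gave most of that sum (77 to 301 counts). The titles of 8 libraries, 5 Atg5-deficient and 3 wild-type, bear consecutive numbers, and those of Atg5-deficient library 6 and wild-type libraries 1 and 5 do not. The labels do not say what the numbers stand for.

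Hepatocytes secrete most plasma proteins, among them albumin, the apolipoproteins, fibrinogen and the protease inhibitors. Their tasks are divided along the blood flow: periportal cells, near the incoming blood, carry out gluconeogenesis and the urea cycle, and pericentral cells, near the central vein, make glutamine and hold most of the cytochrome P450 enzymes that turn CCl4 into its toxic form. Many hepatocyte genes are driven by liver-enriched factors, one of which, HNF1, binds an inverted repeat whose arm reads GTTAAT.

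Promoter windows from RefSeq (GRCm38.p6), covering 250 bases before to 50 after the start of a gene, were used for 33 of the 43 members. Windows of Apoc1, Apoc3, Ttr, Trf, Hp, Serpina3k, Mup20, Arg1, Cps1 and Sds were not used. The 6 printed below are of 3 plasma protein genes that followed the shared pattern (Alb, Fga and Gc) and of the 3 abundant genes that did not (Ass1, Glul and Oat). The 3 followers printed all hold the letters GTTAAT or their reverse complement, which 8 of 19 follower windows did. Windows of Apoe, Hpx and Apoa1, which also followed, do not hold them. Each is read 5′ to 3′ on the strand of its gene, and capitals mark the letters GTTAAT or their reverse complement ATTAAC. The windows lie at chr5:90460620-90460919 (+) for Alb, chr3:83025903-83026202 (+) for Fga, chr5:89457849-89458148 (-) for Gc, chr2:31470020-31470319 (+) for Ass1, chr1:153899679-153899978 (+) for Glul and chr7:132576349-132576648 (-) for Oat.
Alb: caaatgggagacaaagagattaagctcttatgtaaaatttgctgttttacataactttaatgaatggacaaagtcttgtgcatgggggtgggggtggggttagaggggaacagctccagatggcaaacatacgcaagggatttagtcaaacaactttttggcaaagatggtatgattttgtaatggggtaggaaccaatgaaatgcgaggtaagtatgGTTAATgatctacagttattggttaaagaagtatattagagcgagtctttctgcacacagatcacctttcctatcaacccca
Fga: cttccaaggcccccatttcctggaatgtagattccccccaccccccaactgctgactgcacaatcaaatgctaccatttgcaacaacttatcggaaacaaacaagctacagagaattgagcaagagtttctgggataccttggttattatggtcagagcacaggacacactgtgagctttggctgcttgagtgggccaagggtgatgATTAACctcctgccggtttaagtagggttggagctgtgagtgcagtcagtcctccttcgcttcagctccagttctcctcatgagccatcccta
Gc: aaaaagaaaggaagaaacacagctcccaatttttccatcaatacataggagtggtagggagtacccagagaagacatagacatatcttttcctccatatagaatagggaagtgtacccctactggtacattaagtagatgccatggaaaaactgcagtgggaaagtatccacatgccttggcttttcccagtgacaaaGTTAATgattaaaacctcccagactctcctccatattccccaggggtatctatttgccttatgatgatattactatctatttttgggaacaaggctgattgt
Ass1: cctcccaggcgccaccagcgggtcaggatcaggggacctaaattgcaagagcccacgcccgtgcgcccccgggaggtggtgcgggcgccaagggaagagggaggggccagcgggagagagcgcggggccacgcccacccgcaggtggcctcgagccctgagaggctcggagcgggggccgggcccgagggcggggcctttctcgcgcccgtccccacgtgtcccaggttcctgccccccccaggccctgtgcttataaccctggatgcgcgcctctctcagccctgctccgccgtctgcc
Glul: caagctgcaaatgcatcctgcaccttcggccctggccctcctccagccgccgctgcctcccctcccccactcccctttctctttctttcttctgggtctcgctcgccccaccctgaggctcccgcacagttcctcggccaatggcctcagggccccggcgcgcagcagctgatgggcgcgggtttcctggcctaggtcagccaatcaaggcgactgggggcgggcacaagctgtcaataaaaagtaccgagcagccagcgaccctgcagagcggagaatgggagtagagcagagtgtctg
Oat: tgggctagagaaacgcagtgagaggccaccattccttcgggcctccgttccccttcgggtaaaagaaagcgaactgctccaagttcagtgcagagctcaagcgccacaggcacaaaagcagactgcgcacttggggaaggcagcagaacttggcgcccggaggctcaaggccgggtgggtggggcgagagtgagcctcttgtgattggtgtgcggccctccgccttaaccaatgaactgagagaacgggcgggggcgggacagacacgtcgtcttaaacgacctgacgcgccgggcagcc

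The motif begins 32 bases before the start in Alb, 43 in Fga and 52 in Gc, and it is not among the letters of the Ass1, Glul or Oat windows. Searched on both strands, GTTAAT occurred in 10 of the 33 member windows and in 7.1% of 32851 windows of the same length over all genes. It was in 8 of 19 windows of members that followed the shared pattern and in 0 of 4 of those that departed from it. Among the 10 matching member windows, those of Serpina1a, Serpina1b and Serpina1c are nearly alike around the motif, so they are not separate observations. TATAAA, the core of the TATA box, also searched on both strands and sharing no full match with GTTAAT, occurred in 9 of 33 member windows and in 13.6% of all windows. Windows of the 19 followers held 40 to 59.3% G and C (median 49.7%) and 0 to 10 CpG pairs, and those of the 4 departing genes 47.7 to 74% (median 63%) and 7 to 27 CpG pairs. The median over all windows was 52.7%. These are descriptions of sequence, and a match is not a site of binding.

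The amount of hepatocyte RNA differed far more between libraries of a genotype than between genotypes. Summed over the 26 secreted plasma proteins, Atg5-deficient libraries 1 to 6 had 1940, 2009, 1494, 124, 268 and 494 CPM, and wild-type libraries 1 to 5 had 174, 797, 1177, 630 and 87.0 CPM. Atg5-deficient libraries 1, 2 and 3 were the highest and wild-type library 5 the lowest, but Atg5-deficient library 4 was the second lowest, so the groups overlapped. The range from lowest to highest was 23.1-fold. In bulk libraries, more cells of a type and more RNA per cell cannot be told apart. These sums, and those of the other classes, are CPM of total counts without further scaling.

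Once their departing members were set aside, the periportal sum put the 11 libraries in the same order as the secreted sum, and the pericentral sum did so except for 2 exchanges between neighbours. Its lowest library was Atg5-deficient 4 rather than wild-type 5, and Atg5-deficient library 3 was slightly above library 1. Periportal genes other than Ass1 and Hal summed to 77.8, 78.6, 61.0, 5.27, 9.30 and 19.2 CPM in Atg5-deficient libraries 1 to 6 and to 6.01, 32.7, 47.2, 25.8 and 3.39 in wild-type libraries 1 to 5, a 23.1-fold range. Pericentral genes other than Glul and Oat summed to 11.8, 19.1, 11.9, 0.649, 1.84 and 2.30 CPM and to 1.52, 5.56, 9.335, 4.23 and 0.783 CPM, a 29.5-fold range. With all members in, the periportal sum ran only from 113 to 261.5 CPM and the pericentral sum only from 86.3 to 120 CPM (1.39-fold), because Ass1, Glul and Oat made up most of them. The 3 remaining genes, Fabp1, Bhmt and Hpd, summed to 1.36 CPM in wild-type library 5 and to 28.1 CPM in Atg5-deficient library 2.

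**Figure D1:**
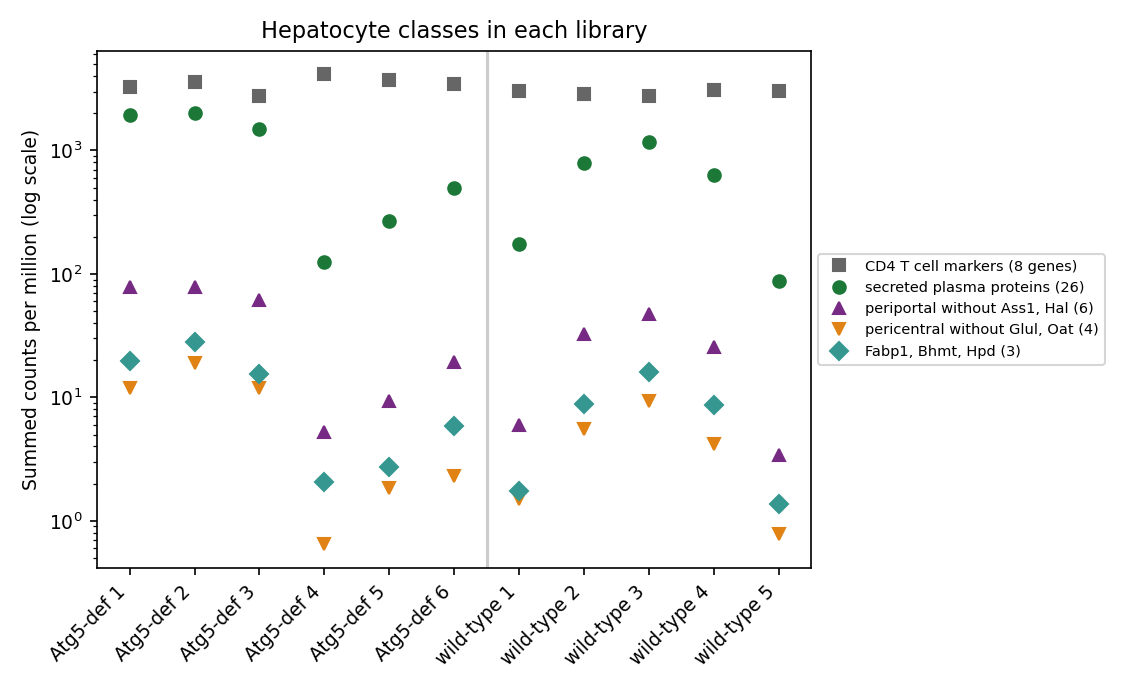
Summed CPM (log scale) of CD4 T cell markers and of 4 hepatocyte classes in each of the 11 libraries, 1 point per class and library. Secreted plasma proteins run from 87.0 CPM in wild-type library 5 to 2009 in Atg5-deficient library 2 and the other plotted sums, which leave out Ass1, Hal, Glul and Oat, shift with them, while CD4 T cell markers stay between 2767 and 4139 CPM.

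Markers of other resident liver cells moved in part with the hepatocyte sum. Macrophage and Kupffer cell markers (11 genes) summed to 7.80, 7.47, 5.64, 3.78, 1.76 and 1.67 CPM in the Atg5-deficient and 2.65, 3.98, 5.00, 3.40 and 1.78 CPM in the wild-type libraries. Sinusoidal endothelial markers (6 genes) summed to 4.57, 4.40, 6.91, 0.973, 0.773 and 1.40 CPM and to 1.46, 1.93, 4.71, 2.47 and 0.731 CPM. Both sums were highest in Atg5-deficient libraries 1, 2 and 3 and in wild-type library 3. In Atg5-deficient library 3, Fcgr2b alone gave 5.57 of the 6.91 CPM of endothelial markers (171 counts, 9 to 62 elsewhere). That library also had the highest B cell marker sum, 21.5 CPM, and the part of one in the other was not tested. At the level of single genes most of these markers had few reads: the Kupffer cell marker Clec4f had 0 to 34 counts per library and the endothelial Stab2 had 0 to 45. Their part in the results below was not tested.

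Alb, the gene of serum albumin (ENSMUSG00000029368, chromosome 5, 90460897 to 90476602, + strand), was the most abundant member, with 939 to 24042 counts per library. Values for single genes are CPM scaled by TMM factors, which correct for differences in RNA composition. Alb had 608, 607, 429, 32.9, 78.5 and 137 CPM in Atg5-deficient libraries 1 to 6 and 46.5, 254, 380, 188 and 23.9 CPM in wild-type libraries 1 to 5. The highest library was 25.4-fold above the lowest, and high and low libraries occurred in both genotypes.

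Other carriers and clotting proteins repeated this order almost library by library. Trf, the iron carrier transferrin, had 210, 193, 157, 12.8, 26.9 and 46.8 CPM in the Atg5-deficient and 16.5, 89.4, 127, 62.7 and 11.2 CPM in the wild-type libraries. Fgb, the fibrinogen beta chain, had 80.3, 76.9, 58.1, 4.21, 10.5 and 22.9 CPM and 7.05, 33.0, 53.6, 25.8 and 3.31 CPM. As with Alb, the low libraries were Atg5-deficient 4 and wild-type 1 and 5. Hpx, the haem-binding hemopexin, had 116, 88.2, 74.9, 5.56, 15.4 and 27.3 CPM and 8.30, 45.7, 65.7, 28.7 and 3.33 CPM. Serpina1b, a mouse alpha-1-antitrypsin, had 31.5, 31.0, 23.2, 1.43, 3.92 and 6.71 CPM and 2.19, 13.0, 18.2, 8.74 and 1.40 CPM. Both were highest in Atg5-deficient library 1 and lowest in wild-type library 5. Saa1 and Hamp had fewer reads: Saa1, serum amyloid A, ran from 0.254 to 6.29 CPM and Hamp, the iron hormone hepcidin, from 0.153 to 3.41 CPM.

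Within the apolipoproteins, Apoa1 and Apoe differed in how closely they tracked Alb. Apoa1, the main protein of high-density lipoprotein, had 63.7, 62.0, 49.2, 3.12, 6.88 and 15 CPM in the Atg5-deficient and 4.96, 26.3, 37.0, 17.6 and 2.62 CPM in the wild-type libraries. Apoe, a ligand of lipoprotein receptors that macrophages also make, had 165, 133, 125, 13.7, 23.7 and 35.8 CPM and 18.2, 79.4, 95, 46.6 and 10.8 CPM. Its range was 15.3-fold, narrower than that of Alb. Per 1000 Alb counts, Apoe had 453 counts in wild-type library 5, 416 in Atg5-deficient library 4 and 392 in wild-type library 1, the 3 libraries with the least Alb. In the other 8 libraries it had 219 to 312. As a share of Apoe plus Alb counts this was 31.2% (95% exact binomial interval 28.7 to 33.7) in wild-type library 5 and 18.0% (17.5 to 18.4) in Atg5-deficient library 2; such intervals cover counting error only. The macrophage marker sum in those 3 libraries was 1.78, 3.78 and 2.65 CPM, and its part in the Apoe share was not tested.

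Among periportal genes, Pck1, Cps1 and Tat followed the shared signal defined below, and Arg1 and G6pc had too few counts to be judged. Pck1, the enzyme that commits carbon to gluconeogenesis, had 31.4, 26.8, 23.1, 2.75, 3.82 and 8.26 CPM in the Atg5-deficient and 1.62, 13.8, 19.3, 8.003 and 0.916 CPM in the wild-type libraries. Cps1, which makes carbamoyl phosphate at the entry of the urea cycle, had 33.1, 32.4, 22.1, 1.88, 3.70 and 5.56 CPM and 2.61, 14.7, 20.6, 10.99 and 1.48 CPM. Arg1, the arginase that closes the cycle, ran from 0.212 CPM in Atg5-deficient library 4 to 7.89 in Atg5-deficient library 1. Tat, tyrosine aminotransferase, ran from 0.254 CPM in wild-type library 5 to 8.94 in Atg5-deficient library 1. All 4 were low in Atg5-deficient library 4 and in wild-type libraries 1 and 5. G6pc, the catalytic subunit of glucose-6-phosphatase, had only 0 to 74 counts, with 0 in Atg5-deficient libraries 4 and 6. Per 1000 Alb counts it ran from 0 to 6.39, with the highest value in wild-type library 5 and 0.293 in Atg5-deficient library 3, where Alb was high.

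The 4 pericentral cytochrome P450 genes had too few counts to be judged singly. Cyp2e1 (chromosome 7, 140763739 to 140774987, + strand), which encodes the enzyme that activates CCl4, had 4.76, 7.52, 3.49, 0.371, 0.394 and 0.367 CPM in Atg5-deficient libraries 1 to 6. In wild-type libraries 1 to 5 it had 0.418, 2.71, 3.80, 1.51 and 0.229 CPM. Per 1000 Alb counts it ranged from 2.68 in Atg5-deficient library 6 to 12.4 in Atg5-deficient library 2. As a share of Cyp2e1 plus Alb counts these were 0.267% (exact interval 0.146 to 0.448) and 1.22% (1.09 to 1.37), so the Cyp2e1 share differed between libraries beyond counting error. Cyp3a11 ran from 0.127 to 7.40 CPM, Cyp1a2 from 0.0265 to 1.92 CPM and Cyp2c29 from 0 to 1.87 CPM, each near or below the limit of 3 counts in at least 1 library. Cyp2c29 had 12 counts in wild-type library 5, the library with the least Alb, as many as in wild-type library 2. Per 1000 Alb counts this was 12.8 against 1.52.

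Fabp1, the fatty acid carrier of hepatocytes, had 12.9, 18.6, 8.70, 1.43, 1.97 and 3.88 CPM in the Atg5-deficient and 1.17, 6.38, 11.1, 5.07 and 0.814 CPM in the wild-type libraries. Bhmt, which remethylates homocysteine with betaine, had 4.35, 4.95, 2.54, 0.529, 0.370 and 1.05 CPM and 0.209, 2.16, 2.83, 1.59 and 0.509 CPM. Hpd, an enzyme of tyrosine breakdown, had 3.71, 3.71, 3.74, 0.0529, 0.419 and 0.682 CPM and 0.261, 1.22, 3.23, 1.82 and 0 CPM. All 3 were high in Atg5-deficient libraries 1 and 2 and low in Atg5-deficient library 4 and wild-type libraries 1 and 5, and the groups overlapped.

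To find members with a pattern of their own, the shared hepatocyte signal of each library was taken as the median, over the other members with at least 10 counts in every library, of log2 CPM (total counts, 0.5 added) centred on the mean of each gene. Relative to wild-type library 5, the lowest, it was 21.9, 22.8, 16.9, 1.43, 3.01 and 5.60-fold in Atg5-deficient libraries 1 to 6 and 2.01, 9.13, 13.7 and 7.22-fold in wild-type libraries 1 to 4. A member was said to depart when subtracting the signal increased its spread over the 11 libraries. Of the 43 members 30 had enough counts to be judged. The spread fell for 26 of them, from an SD of 1.38 to 1.89 (median 1.64) on the log2 scale to 0.08 to 0.52 (median 0.24). It was smallest for Alb (0.08), Fgb (0.13), Trf (0.14), Apoa1 (0.14) and Serpina1b (0.15).

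The spread rose for 4 members: Oat from 0.15 to 1.63, Glul from 0.16 to 1.61, Ass1 from 0.40 to 1.63 and Hal from 0.92 to 1.43. By the change in SD, nearest to the boundary were Hal among those that departed and Apoa2, an apolipoprotein, among those that did not (1.43 to 0.43). The same 4 departed under each of 14 alternatives, which were 3 other ways of building the signal and the omission of each library in turn. The other 13 members had too few counts for this measure. In the alternative that took in all members with at least 1 count, these 13 did not depart either.

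**Figure D2:**
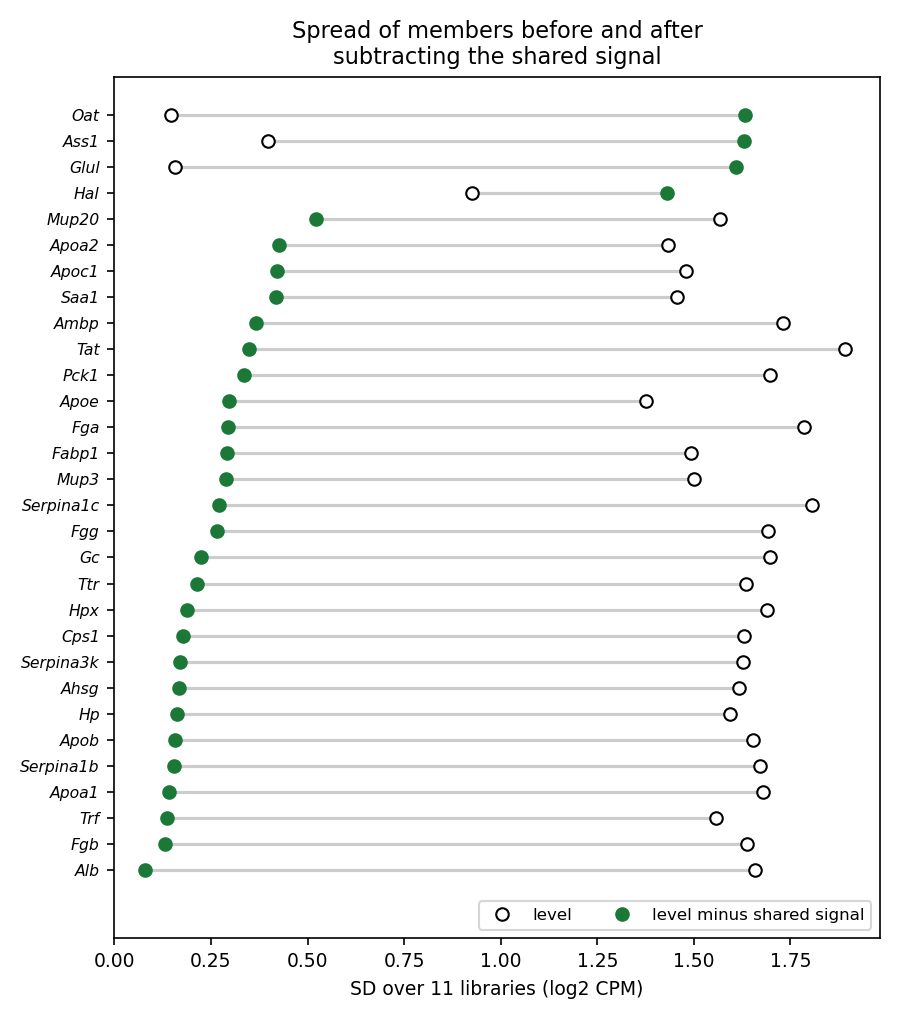
SD over 11 libraries of log2 CPM for each of the 30 measured members, before (open) and after (filled) subtracting the shared hepatocyte signal. For 26 members the filled point lies left of the open one, at 0.52 or less, and for Oat, Ass1, Glul and Hal it lies to the right.

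Glul and Oat, both typical of pericentral hepatocytes, hardly varied between libraries. Glul, glutamine synthetase (chromosome 1, 153899944 to 153909723, + strand), had 67.4, 69.8, 60.7, 53.8, 76.4 and 62.1 CPM in the Atg5-deficient and 57.2, 60.4, 56.6, 63.0 and 61.0 CPM in the wild-type libraries. Oat, ornithine aminotransferase (chromosome 7, 132557478 to 132576398, - strand), had 34.9, 27.6, 36.1, 30.1, 36.6 and 31.8 CPM and 32.6, 38.7, 37.0, 41.0 and 33.9 CPM. In Atg5-deficient library 4 and wild-type library 5, Alb was 32.9 and 23.9 CPM, while Glul was 53.8 and 61.0 and Oat 30.1 and 33.9. The value in Atg5-deficient library 4 was the lowest of Glul, but from lowest to highest Glul ranged only 1.42-fold and Oat 1.48-fold. Their promoter windows, printed above, held 64.3% and 61.7% G and C. The 19 windows of members that followed held 40 to 59.3% (median 49.7%), Alb being the lowest. The window of Hal, which also departed, held 47.7%.

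Hal, the histidine-degrading enzyme of periportal hepatocytes, had 10 to 99 counts per library and a narrower spread than Alb. It had 2.13, 2.50, 0.974, 0.847, 0.246 and 0.577 CPM in the Atg5-deficient and 1.49, 1.19, 1.76, 1.57 and 0.967 CPM in the wild-type libraries. The 3 highest libraries were among the 4 with the most Alb, but its level in wild-type library 5, the library with the least Alb, was about that in Atg5-deficient library 3, where Alb was 429 CPM.

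Ass1, argininosuccinate synthase (chromosome 2, 31470207 to 31520672, + strand), joins citrulline to aspartate in the urea cycle and, outside the liver, in the making of arginine. It had 161, 175, 140, 140, 243 and 163 CPM in Atg5-deficient libraries 1 to 6 and 100, 124, 104, 104 and 113 CPM in wild-type libraries 1 to 5. Every Atg5-deficient library was above every wild-type library. In wild-type library 5 it stood at 113 CPM while Alb stood at 23.9. Per kilobase of exon, in CPM of total counts, the median level of Ass1 was 59.1, second among members to Alb at 82.7. It was above Apoe (22.4), Hpx (19.7), Trf (19.4), Glul (19.0) and Oat (14.6).

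**Figure D3:**
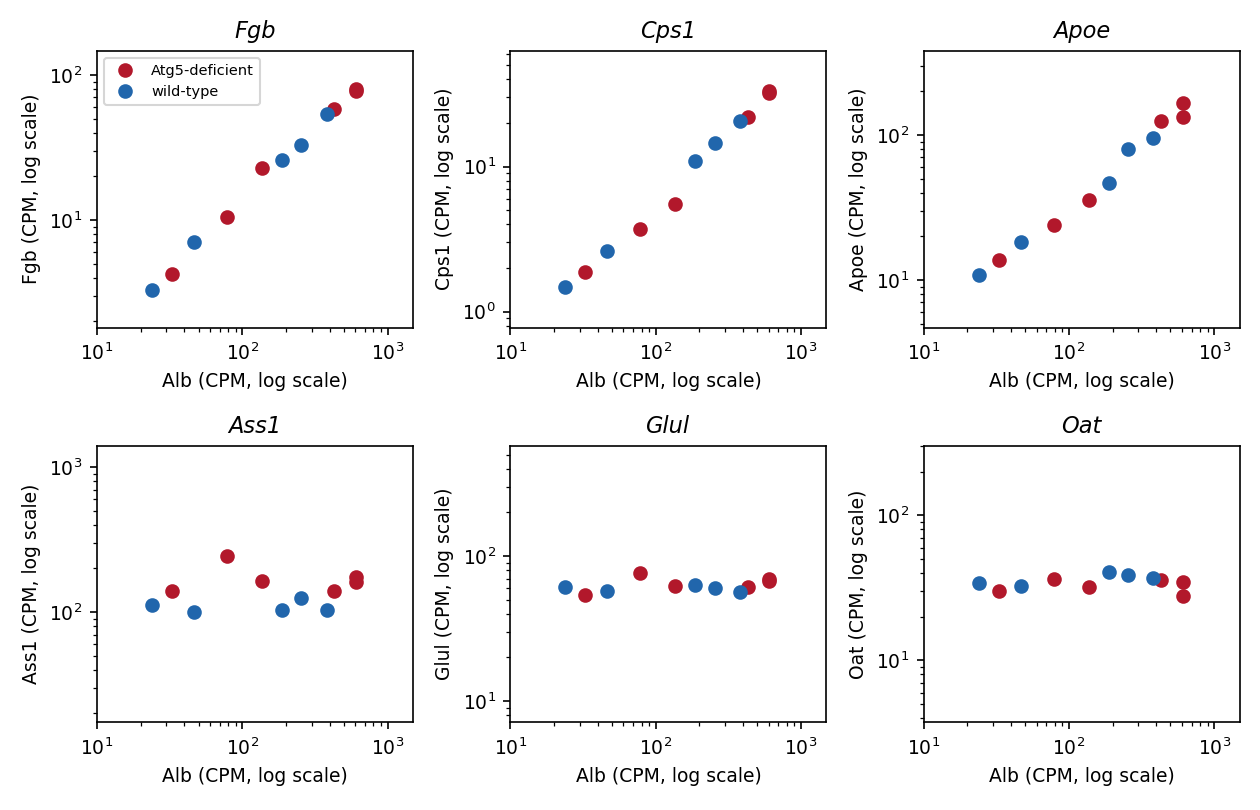
Level of Fgb, Cps1, Apoe, Ass1, Glul and Oat against Alb in the same library (TMM-scaled CPM, log axes, each vertical axis spanning the same fold), 1 point per library. Fgb, Cps1 and Apoe rise with Alb over its 25.4-fold range; Glul and Oat stay level, and the Ass1 points of Atg5-deficient libraries (140 to 243 CPM) all lie above those of wild-type libraries (100 to 124 CPM).

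The genotypes were compared with edgeR's quasi-likelihood F test with Benjamini-Hochberg adjustment over 17987 genes, of which 4.43% were called higher and 2.41% lower (6.84% in either direction) in Atg5-deficient libraries at an adjusted p of 0.05. Of the 42 tested members, 1 was called higher (Ass1) and 0 lower. Upper-quartile scaling turned the balance over all genes, from 797 higher and 434 lower to 584 and 685, and Ass1 was still called. Ass1 was also the 1 member with an unadjusted p under 0.05, and the 1 member called by DESeq2 and by limma-voom. Groups did not overlap for 1 of 42 members, against 4.86% of all genes tested. Log2 fold changes (Atg5-deficient minus wild-type) were positive for 39 of 42 and had a median of 0.78, against -0.00 over all genes tested. Since 26 of the 30 measured members share 1 signal, these signs are not separate observations.

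By class, the secreted plasma proteins had a median log2 fold change of 0.81 (26 of 26 positive, 0.36 to 0.92), with standard errors of 0.71 to 0.98 and adjusted p-values (edgeR) of 0.569 to 0.817. The 7 tested periportal genes had a median of 0.71 and the 6 pericentral genes one of 0.73, ranging from -0.16 (Oat) to 1.27 (Cyp2c29). Fabp1, Bhmt and Hpd had 0.68, 0.65 and 0.64. For Alb the change was 0.82 (SE 0.89, adjusted p = 0.631 by edgeR), that is 315 ± 265 CPM (SD, n = 6) against 179 ± 148 CPM (n = 5). Glul had 0.13 (SE 0.09, adjusted p = 0.431 by edgeR) and Oat -0.16 (SE 0.10, adjusted p = 0.357). For the abundance of hepatocyte transcripts a difference between genotypes was thus not detectable beyond the spread within each. Over the 8 libraries with consecutive numbers alone, the difference in mean log2 level of the secreted sum was -0.22, against 0.80 over all 11.

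With the shared signal of each library as a covariate, the median over the 42 members was -0.06 (-1.93 to 0.66) and 1 was called, against 7.68% of all genes in that fit. For the secreted proteins the median was -0.05 (-0.40 to 0.21). The members themselves make up this covariate, so these values describe what is left and do not test the members. Ass1 had 0.66 (SE 0.14, adjusted p = 0.0132 by edgeR) with the covariate.

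**Figure D4:**
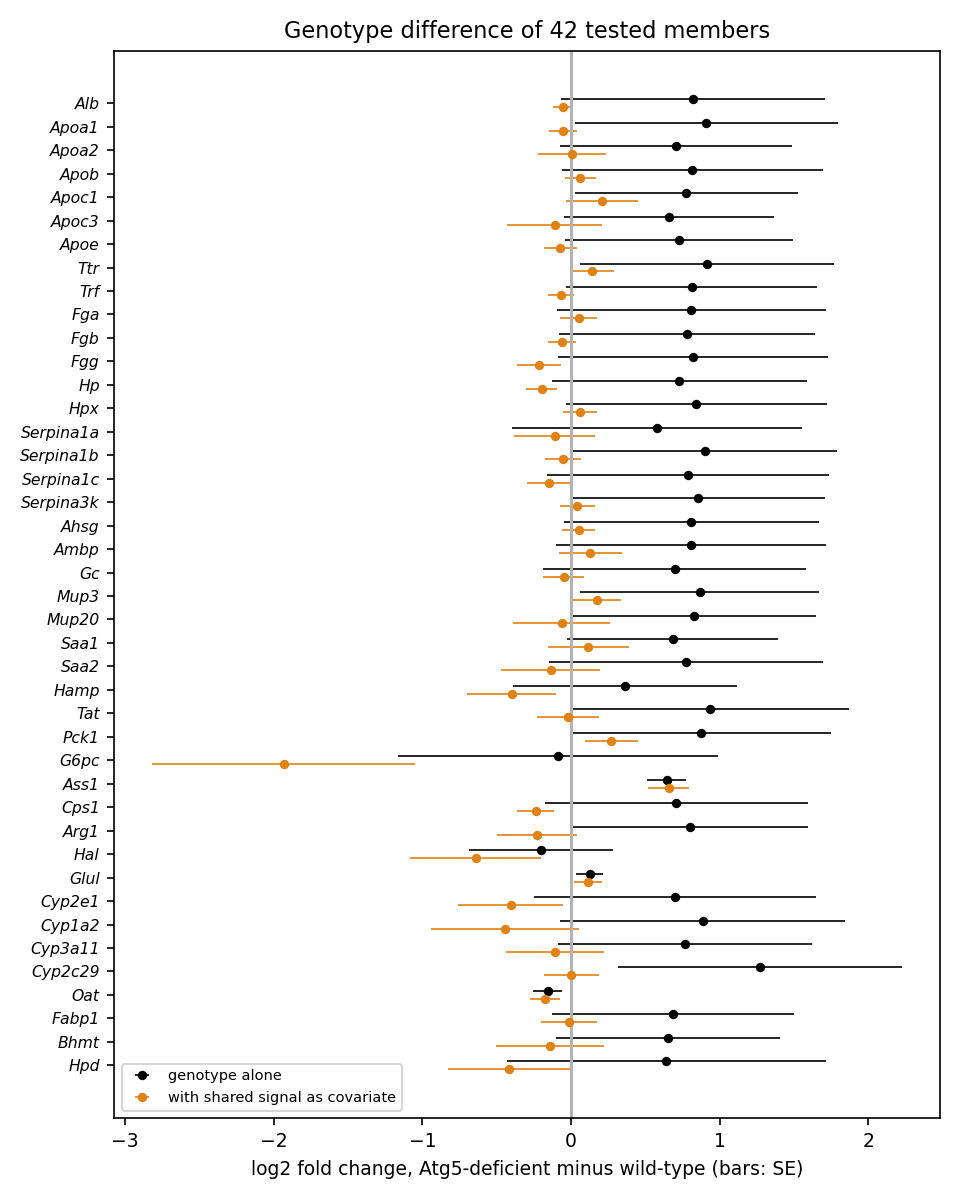
Log2 fold change (Atg5-deficient minus wild-type) with its standard error for 42 tested members, from the fit on genotype alone (black) and with the shared hepatocyte signal as a covariate (orange). Most black points lie near 0.8 with wide bars and most orange points near 0, while Ass1 is at 0.64 and 0.66.

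Ass1 had 170 ± 38.2 CPM (SD, n = 6) in Atg5-deficient and 109 ± 9.64 CPM (n = 5) in wild-type libraries, a log2 fold change of 0.64 (SE 0.13, adjusted p = 0.0120 by edgeR). It stayed called without any 1 library, at 0.51 to 0.70, the lowest value being that without Atg5-deficient library 5. Over the 8 consecutively numbered libraries alone the change was again 0.64, but the adjusted p was 0.0968 by edgeR and the gene was not called. Of its 50-base windows 38.6% also occur in transcripts of other genes, chiefly the processed copy Gm5424, which had 25 to 121 counts per library against 3639 to 9856 for Ass1.

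A list of 58 further hepatocyte genes, such as coagulation factors, complement components and other enzymes, was set beside the members. Of 49 tested, 49 had a positive log2 fold change (median 0.73). Of these, 1 was called higher and 0 lower, against 4.43% and 2.41% of all genes tested. Most of those with enough counts followed the shared signal, so their signs are not separate observations. With that signal as a covariate the median over the 49 was -0.05. The gene called was Asl, argininosuccinate lyase, the enzyme that follows Ass1 in the urea cycle (chromosome 5, 130011258 to 130029247, - strand). Asl had 23.3, 24.1, 22.6, 23.5, 23.6 and 21.8 CPM in the Atg5-deficient and 17.4, 19.3, 19.7, 16.0 and 15.7 CPM in the wild-type libraries. The groups did not overlap for Asl, as for 4.86% of all genes tested. By edgeR the log2 fold change was 0.39, with an SE of 0.09 and an adjusted p of 0.0206. The call was lost without wild-type library 1, 4 or 5 (adjusted p = 0.0515, 0.0583 and 0.0598), with no low-count filter (0.105) and over the consecutively numbered libraries (0.131). Like Ass1, Asl departed from the shared signal, with an SD of 0.24 before and 1.55 after subtraction. Of the 23 further genes with enough counts, only Asl and Serpinc1, antithrombin (0.72 before, 1.05 after), did so. Cps1, at the entry of the urea cycle, followed the signal, and Arg1, at its exit, had too few counts for the main measure. Neither was called by edgeR, with log2 fold changes of 0.71 (SE 0.88) and 0.80 (SE 0.80). Otc, another enzyme of the cycle, had 0 to 46 counts per library and was not called either (0.63, SE 0.74, adjusted p = 0.658 by edgeR).

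**Figure D5:**
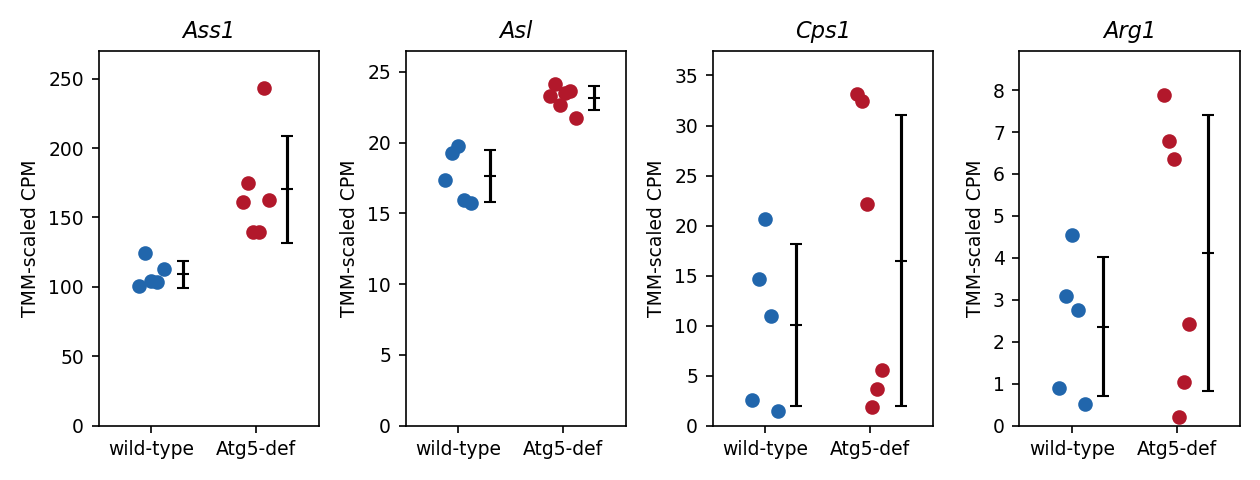
TMM-scaled CPM of 4 urea cycle genes in wild-type (blue, n = 5) and Atg5-deficient (red, n = 6) libraries, 1 point per library, with the mean and SD in black. Otc, another gene of the cycle with few counts, is not shown. Ass1 and Asl are higher in every Atg5-deficient library than in any wild-type library, and Cps1 and Arg1 spread from near 0 upwards in both groups.

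Some members share sequence with relatives, and the labels do not say how reads common to several genes were counted. The share of 50-base windows found also in other genes' transcripts was 74.2% for Serpina1c, 57.6% for Serpina1a, 29.5% for Serpina1b, 50.5% for Mup20, 31.5% for Saa1, 30.0% for Saa2 and 25.3% for Bhmt. For Trf it was 59.4%, with Gm20425, a gene model on the same strand that overlaps it. Levels of these single genes are therefore uncertain, while the order of the libraries was that of Alb for Trf as well. In every library more genes had 2 counts than 1 (1.14 to 1.75 times as many), and 60.0 to 69.7% of counts from 10 to 50 were even numbers. Counting intervals take reads as independent, so those given above may be too narrow.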

How the data were processed

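RNA-seq was done on 11 libraries. Raw counts per Ensembl gene were deposited by the authors. STAR, featureCounts and GRCm38 are named per the submitters' processing notes; for versions, annotation release, strand setting and multimapping reads, nothing is stated in the sources used here. Of 56748 IDs, 52125 (91.9%) matched GENCODE M21. Groups came from the labels, and libraries of a group were numbered in accession order, which pairs none.

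The low-count filter was filterByExpr with a minimum count of 10 and a total of at least 15. Libraries were scaled by TMM and genotypes compared with edgeR 4.0.16 (robust quasi-likelihood F test, Benjamini-Hochberg threshold 0.05) in R 4.3.3; limma 3.58.1 and DESeq2 1.42.0 served alternatives, and Python 3.11.15 was used for sums. Sums use total counts; the shared signal adds 0.5 to counts. The test was run on simulated data, where 12 of 115 genes called had not been changed. It recovered 17.91% of 1.5-fold, 49.25% of 2-fold and 87.88% of 4-fold changes. Each gene was simulated independently, with the variability typical of its level and no signal shared between genes. These shares therefore do not apply to the members that follow the shared hepatocyte signal. Intervals are exact binomial at 95%. The members, lists and classes were chosen with earlier results of these data known. Values in every library are given for the 3 members of each class with the most counts per kilobase of exon, those called, those that departed and the 5 that followed the shared signal most closely; other singled-out members were added after their values were seen.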

Additional observations from a re-analysis of the deposited data

Results flagged for a closer look

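Of 62 groups of samples examined (the members with named values, the class sums and the marker sums, each in both genotypes), 3 held a library set apart from the rest of its group by Dixon's criterion, which chance meets in about 1 in 20 groups. Ass1 had 243 CPM in Atg5-deficient library 5, against 140 to 175 in the other 5 libraries of the group; it was called with and without that library. The summed pericentral level was 111 CPM in wild-type library 4, against 95.6 to 98.2 in the other wild-type libraries. Cholangiocyte markers summed to 102 CPM in Atg5-deficient library 4, owing to Spp1. That library was also the lowest of its group in secreted plasma proteins, at 124 CPM, and the part of one in the other was not tested.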

How the results depend on the processing

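The direction of Ass1 held under each of the 20 alternatives (log2 fold change 0.51 to 0.70), and 0 members were called lower under any. With only the consecutively numbered libraries, 0 members were called higher by edgeR (1, Ass1, at an unadjusted p under 0.05), and Ass1 stood at 0.64; that fit has fewer samples. Over all genes 797 were called higher and 434 lower; this became 1394 and 939 with DESeq2, 1966 and 1460 with limma-voom and quality weights, and 87 and 89 with the consecutively numbered libraries. Upper-quartile scaling gave 584 and 685, with fewer calls higher than lower; the cause was not tested. Leaving out 1 library gave 402 to 1410 higher and 191 to 733 lower, the extremes being without wild-type library 1 and Atg5-deficient library 3 for higher, and Atg5-deficient libraries 2 and 3 for lower. Members called higher stayed at 1 (Ass1) without any 1 library. Without 1 library the log2 differences of the sums ran from 0.26 to 1.29 (secreted), 0.62 to 0.78 (periportal), 0.01 to 0.15 (pericentral), 0.25 to 1.14 (other) and 0.39 to 1.003 (all members). The periportal and pericentral sums here include the departing members Ass1, Hal, Glul and Oat. Over the consecutively numbered libraries alone the direction turned for the secreted sum (-0.22) and the sum of the other class (-0.31). With the shared signal as a covariate, by construction, log2 fold changes turned to -0.053 (Alb), -0.056 (Apoa1), -0.062 (Fgb), -0.055 (Serpina1b), -0.072 (Apoe), -0.067 (Trf), -0.14 (Bhmt), -0.24 (Cps1), -0.41 (Cyp2e1 and Hpd) and -0.012 (Fabp1). Hal turned to 0.011 without Atg5-deficient library 5 (range -0.55 to 0.011), the library with its lowest level. No paired analysis was possible because the labels give no replicate numbers that groups share. Members with few counts, such as Sds, G6pc and Cyp2c29, lie near the detection limit in the libraries with little hepatocyte RNA.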
